A study of Drosophila melanogaster with 6 samples.

Results

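The odorant-binding protein (Obp) genes of Drosophila melanogaster were examined in whole female larvae with and without the noncoding RNAs roX1 and roX2. Members were the genes read by a probeset whose only gene symbol in the platform annotation is Obp followed by a number. There were 47 such genes, read by 50 probesets, among 11981 genes with a probeset of a single symbol, and each gene was represented by the probeset with the highest mean over the 6 arrays. Another 4 probesets carry an Obp symbol together with that of another gene, namely Obp50b with Obp50c and Obp57d with Cpr57A, and were not used. RefSeq lists 51 genes named in this way, and the remaining one, Obp83a, was not analysed here.

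Expression was measured on 6 Affymetrix Drosophila Genome 2.0 arrays, where a probeset is the group of short probes designed against one transcript. The 3 mutant arrays held RNA of female larvae in the third instar, of the genotype roX1SMC17ADf(1)52; [w+4D4.3], which lack roX1 and roX2. The 3 control arrays held RNA of female larvae of the same stage and the same roX mutant chromosome that also carry [hsp83-roX1+], an hsp83-driven copy of roX1. The controls therefore share the roX1 and roX2 mutations and the [w+4D4.3] transgene with the mutants, and 1 label of the controls spells that transgene [w+44.3]. Each array received a pool of 50 whole larvae from a separate RNA preparation. The labels do not describe the genetic background of the stocks beyond this.

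Odorant-binding proteins are small secreted proteins, held in shape by disulphide bridges, that bind hydrophobic molecules. Many are released by the support cells of olfactory and taste sensilla into the fluid around the neurons, where they are thought to carry or buffer odorants and pheromones. Other members are made in the fat body, in glia or in the male reproductive tract. Their genes lie mostly in clusters of neighbouring copies, and the number in each symbol is the cytological position. The roX RNAs belong to the dosage compensation complex of males, and the series asks what their loss does in females.

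The values are log2 RMA values, 1 per probeset and array, with array medians between 5.41 and 5.45. Pairs of arrays of one group correlated at 0.9904 to 0.9976 across all probesets, and pairs of different groups at 0.9904 to 0.9959. Control replicate 1 and mutant replicate 3 stood somewhat apart: they held the lowest value for 25.9% and 29.5% of all tested genes, and limma's estimated array weights were smallest for them (0.275 and 0.425). The excess of 3' over 5' signal, a sign of RNA quality, was taken on the log2 scale. For actin it was 0.871 ± 0.090 in mutants and 0.721 ± 0.021 in controls, and every mutant value was above every control value. For GAPDH it was 1.38 ± 0.13 and 1.38 ± 0.033 (SD, n = 3 per group for both transcripts). The part of RNA quality in the Obp differences was not tested.

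A few Obp probesets were among the brightest on the arrays, while 22 of the 47 genes were too dim to test. The family spanned the scale, with a 6-array mean of 14.30 for Obp99b and of 2.59 for Obp56f. The means of 4 genes, Obp99b, Obp56d, Obp44a and Obp99c, were at least 12, which is 8.51% of the family against 2.40% of all genes. At lower cutoffs this excess was not seen. A mean of at least 10 was reached by 12.8% of the family and 11.6% of all genes. For a mean of at least 8 the shares were 25.5% and 35.9%. The family's median of 4.59 was nevertheless below the median of 7.02 over all genes. Of the 47 genes, 25 (53.2%) passed the filter on level and were tested, against 74.1% of all genes; this filter left out the 40% of probesets with the lowest mean, so that a tested probeset had a mean of at least 4.51. Probesets bind with different strength, so these positions describe signal and not the relative amounts of transcript.

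**Figure D1:**
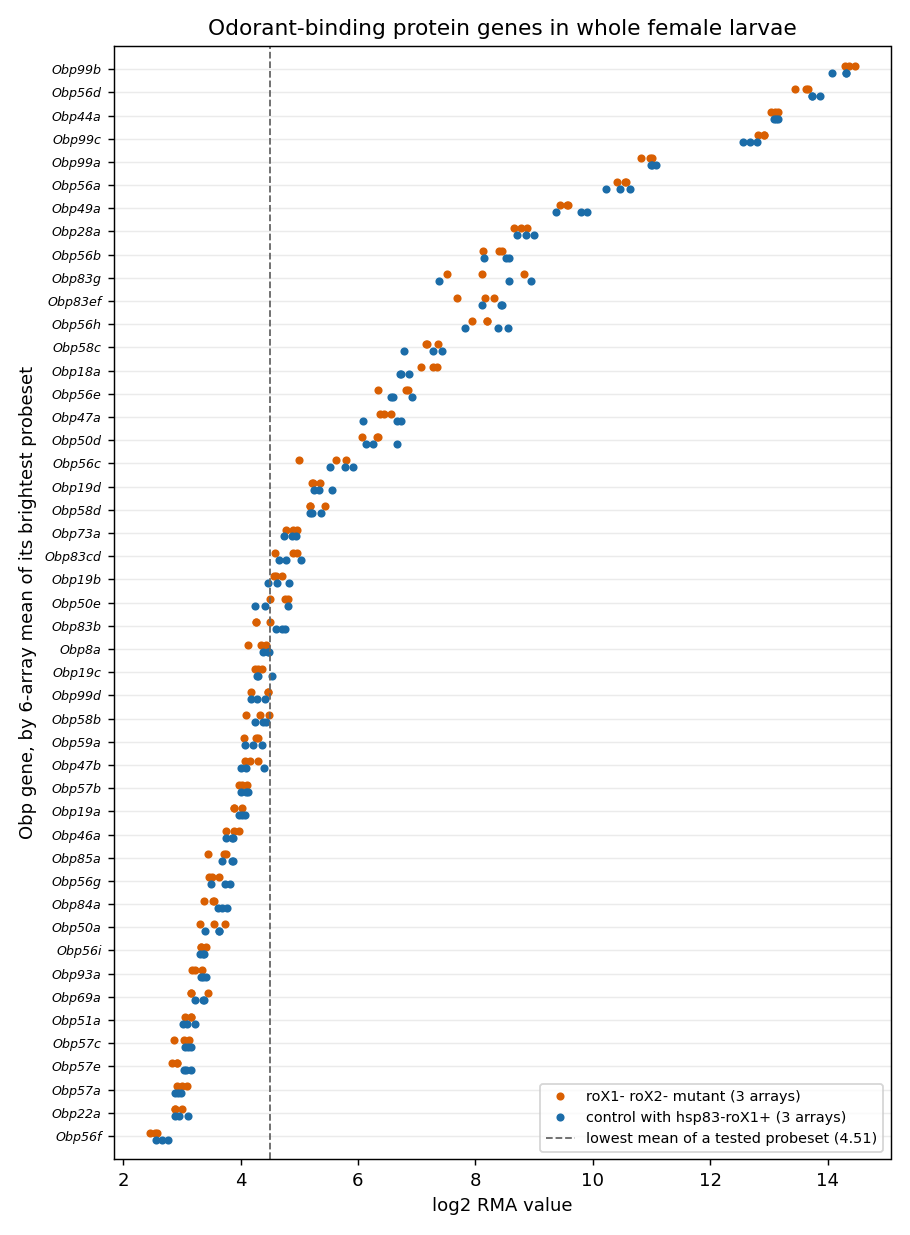
Log2 RMA values of the 47 Obp genes (vertical axis, ordered by the 6-array mean of the brightest probeset) on each of 3 mutant arrays (orange) and 3 control arrays (blue). The dashed line marks 4.51, the lowest mean of a tested probeset; 25 genes lie at or above it, and the mutant and control points of a gene lie close together relative to the span of the family.

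Obp99b, a gene transcribed in fat body and known in adults for its control by the sex determination pathway, read 14.30, 14.36 and 14.47 on the mutant arrays and 14.31, 14.08 and 14.31 on the controls. The groups overlap. Its probeset was rank 4 of 18769 by mean, and on mutant replicate 3 no probeset was brighter. On the other 5 arrays it lay between 0.078 and 0.35 below the brightest probeset, so it sat at the top of the measured range. Its difference, mutant minus control, was 0.14 (log2 units; SE 0.10, limma adjusted p = 0.702).

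Obp56d, a member found in olfactory and taste sensilla of adults, read 13.66, 13.64 and 13.44 in mutants and 13.87, 13.73 and 13.73 in controls. All 3 mutant values were below all 3 control values. The difference was -0.20 (SE 0.090, limma adjusted p = 0.578). Obp44a, which is made by glia of the larval nervous system and binds fatty acids, was the steadiest tested member: it read 13.10, 13.15 and 13.03 in mutants and 13.16, 13.08 and 13.12 in controls. Its 6 values spanned 0.13, its pooled SD within groups was 0.0522, and 94.1% of tested genes had a larger SD. The difference of Obp44a was -0.022 with a 95% interval from -0.19 to 0.15, which bounds a change in signal to at most 1.14-fold in either direction at that confidence.

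Obp99c lies in the same cluster as Obp99b and read 12.82, 12.92 and 12.92 in mutants against 12.79, 12.56 and 12.67 in controls. The groups do not overlap, with the mutants higher by 0.21 (SE 0.085, limma adjusted p = 0.536). Obp99a, the third bright gene of that cluster, read 11.01, 10.82 and 10.98 in mutants and 11.01, 10.99 and 11.07 in controls, a difference of -0.089 (limma adjusted p = 0.763). Its values overlap, and the 3 tested members of the cluster thus had differences of both signs. Obp99d, the remaining member, was dim, with a mean of 4.33, and was not tested.

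Obp56a read 10.42, 10.55 and 10.56 in mutants and 10.46, 10.23 and 10.63 in controls. Obp49a, which in adult taste organs takes part in the suppression of sweet responses by bitter compounds, read 9.57, 9.56 and 9.44 in mutants and 9.38, 9.90 and 9.80 in controls. Obp28a, an abundant member of olfactory sensilla, read 8.88, 8.77 and 8.66 in mutants and 8.71, 8.86 and 9.00 in controls. In all 3 genes the mutant range lay within the control range or overlapped it. Their differences were 0.073, -0.17 and -0.084, with limma adjusted p-values of 0.873, 0.744 and 0.833. With 1 array left out the difference of Obp49a ran from -0.33 (without control replicate 1) to -0.069 (without control replicate 2) and that of Obp28a from -0.16 (without control replicate 1) to -0.011 (without control replicate 3). Obp56b, next in brightness, read between 8.13 and 8.46 in mutants and between 8.15 and 8.57 in controls.

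No Obp gene passed the test between the genotypes. In limma's fit across 11262 probesets, 0 of 25 tested Obp genes had an adjusted p under 0.05, against 47 of 8882 tested genes, or 0.529%. At an unadjusted p under 0.05 there were 3 of 25 (12%), Obp18a, Obp83b and Obp99c, against 9.05% of all tested genes. The mutant values lay wholly on one side of the control values in 4 of 25 genes (16.0%), Obp18a and Obp99c higher and Obp83b and Obp56d lower, against 16.3% of all tested genes (7.23% higher and 9.09% lower); with 3 arrays against 3, an exact two-sided permutation test of a single gene cannot go below p = 0.1. These shares are close to the background. The median difference of the 25 genes was -0.042, that of all tested genes -0.0048. Of the 25 fitted differences 8 were above and 17 below 0, and 23 were smaller than 0.3 in size (92.0%, against 91.1% of all tested genes). Obp83b passed the filter through its controls, with means of 4.35 in mutants and 4.68 in controls. It counts here towards the low p-values, the genes without overlap and the differences below 0. Obp50e, among the differences above 0, passed the filter through its mutants. In RNA of whole larvae, fewer cells of a type and less RNA per cell cannot be told apart.

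**Figure D2:**
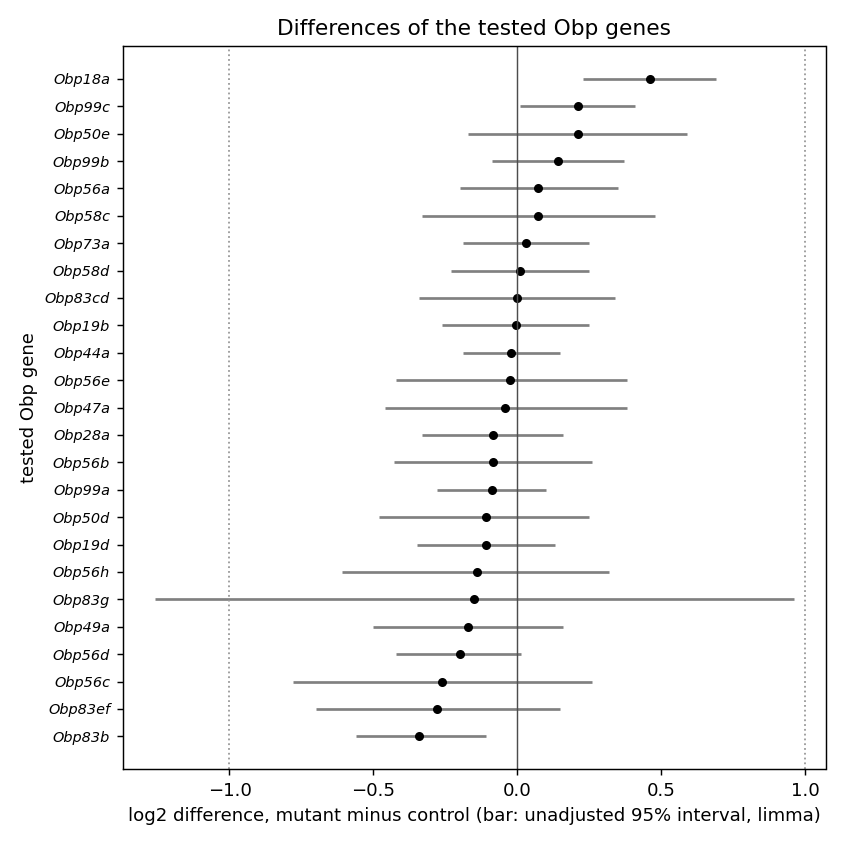
Log2 difference, mutant minus control (horizontal axis), of the 25 tested Obp genes (vertical axis), with its unadjusted 95% interval from limma as a bar; dotted lines mark a change of 2-fold. The intervals of Obp18a, Obp99c and Obp83b leave out 0 before adjustment, and that of Obp83g is the widest.

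The intervals of most members were narrow on the scale of the arrays. Leaving aside Obp99b, at the top of the range, and Obp83b, at the level of the filter, the unadjusted 95% interval lay within a 2-fold change in either direction for 22 of 23 genes and within 1.5-fold for 17. The 23 genes still include Obp50e and Obp19b, whose 6-array means of 4.59 and 4.63 were close to the filter at 4.51. Differences in signal can understate changes in transcript near the top and the bottom of the scale, so these intervals bound the signal. The interval reached 0.17 to either side of the estimate for Obp44a and 1.11 for Obp83g, with a median of 0.27.

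The smallest p in the family belonged to Obp18a, an X-linked member that stands alone at its cytological position. It read 7.08, 7.35 and 7.27 in mutants and 6.71, 6.74 and 6.87 in controls. All 3 mutant values were higher than all 3 control values, and the means were 7.23 ± 0.14 and 6.77 ± 0.088 (SD, n = 3 per group). The difference of 0.46 corresponds to 1.37-fold (SE 0.10, unadjusted 95% interval 1.17-fold to 1.61-fold) and did not pass (limma adjusted p = 0.176). It was between 0.40 and 0.53 when any 1 array was left out, with limma adjusted p-values between 0.192 and 0.613. The nearest tested genes on either side in RefSeq gene order were tgy and RhoGAP18B. Their differences were 0.053 and 0.032 (limma adjusted p = 0.928 and 0.937), and their groups overlap.

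Obp83b, the OS-E protein of pheromone-sensing and other antennal sensilla, had the next smallest p. It read 4.26, 4.27 and 4.51 in mutants and 4.70, 4.60 and 4.75 in controls. The mutant mean of 4.35 was below the lowest level tested and the control mean of 4.68 was above it, so the gene passed the filter through its controls. The difference was -0.34 (SE 0.10, limma adjusted p = 0.348). With arrays weighted by their estimated quality it was -0.40 and passed narrowly (limma adjusted p = 0.0498), in a fit that called 2.08% of all tested genes. Its 6-array mean of 4.51 was the lowest of a tested member, and the brightest member not tested was Obp8a with 4.38.

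Obp83g, in the same cluster, varied far more between arrays than between genotypes. It read 7.51, 8.11 and 8.82 in mutants and 7.38, 8.57 and 8.94 in controls, a span of 1.56 on the log2 scale or 2.94-fold. In both groups replicate 1 was the lowest array and replicate 3 the highest, and the groups overlap over nearly the whole span. Its pooled SD of 0.738 was larger than that of 98.2% of tested genes. The difference was -0.15 with a 95% interval from -1.26 to 0.96 (limma adjusted p = 0.938), an interval that does not leave out a fall of 2-fold. It ran from -0.61 to 0.17 when 1 array was left out. With arrays weighted by their estimated quality the difference was -0.66 (limma adjusted p = 0.292). Muscle markers also had a wide spread between arrays: the median deviation of 6 tested muscle genes from their means was -0.19, 0.016 and 0.43 on mutant replicates 1, 2 and 3 and -0.50, 0.074 and 0.21 on the controls. The part of other tissues in the spread of Obp83g was not tested.

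Over the family, spread between arrays was somewhat larger than over all genes, a description given without a test and without matching genes for level. The pooled SD within groups had a median of 0.152 in the 25 Obp genes and 0.127 in all tested genes. The 6 values spanned more than 0.5 in 11 of 25 Obp genes (44.0%), against 27.5% of all tested genes. Control replicate 1 was the lowest of the 6 arrays for 8 Obp genes (32.0%, against 25.9% of all tested genes). It lay more than 0.3 below both other controls in 6 genes, Obp49a, Obp56b, Obp83g, Obp56h, Obp58c and Obp47a, which is 24.0% against 11.4% of all tested genes; the gap ran from 0.38 for Obp56b to 1.18 for Obp83g. The same array was the highest of the 6 for 5 of 25 Obp genes (against 28.1% of all tested genes), Obp56d, Obp44a, Obp50d, Obp19d and Obp19b. Obp50d read 6.67 there against 6.14 and 6.26 on the other controls.

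**Figure D3:**
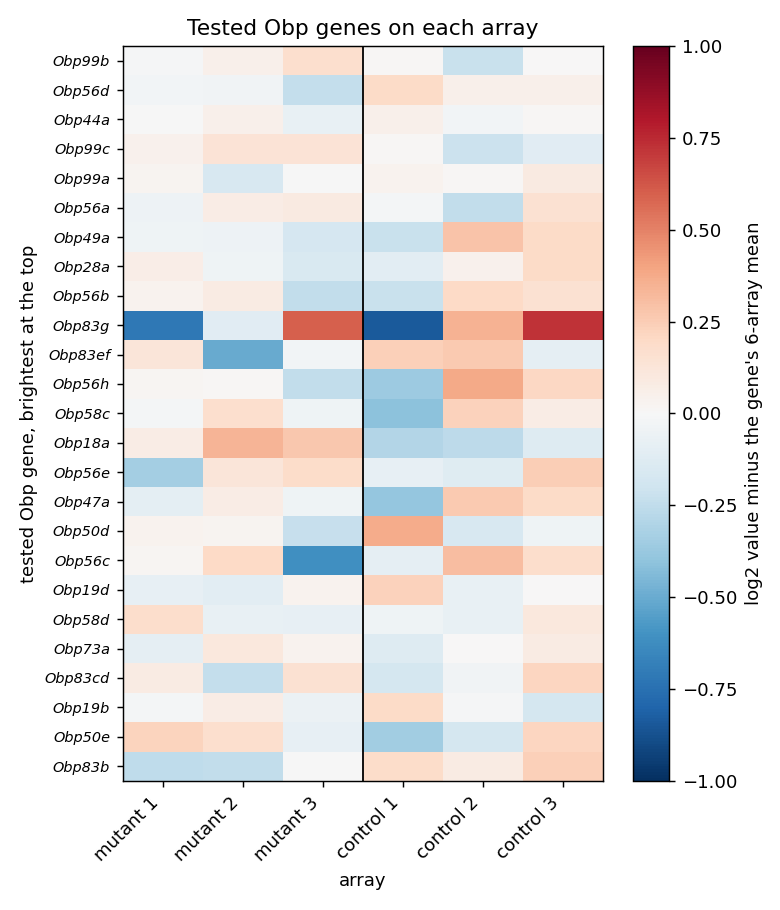
Deviation of each tested Obp gene (rows, brightest at the top) from its own 6-array mean on the log2 scale (colour) on each array (columns; mutants to the left of the line). Obp83g shows the deepest colours, low on mutant 1 and control 1, and Obp18a lies above its mean on all 3 mutant arrays and below it on all 3 controls.

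Within clusters of neighbouring genes, bright and dim members stood side by side. The Obp56 cluster on 2R holds 9 Obp genes within a run of 13 protein-coding genes. Its probesets spanned 11.09 on the log2 scale, from Obp56d at 13.68 to Obp56f at 2.59. The 6 tested members, Obp56a, Obp56b, Obp56c, Obp56d, Obp56e and Obp56h, had differences between -0.26 and 0.073, with a median of -0.12 and a lowest limma adjusted p of 0.578. Obp56h, known in adults for its effect on courtship, read 8.20, 8.19 and 7.94 in mutants and 7.82, 8.56 and 8.39 in controls. Obp56c read 5.63, 5.80 and 4.99 in mutants and 5.52, 5.91 and 5.78 in controls, and its low value on mutant replicate 3 stands out among its 6. Obp56f, Obp56g and Obp56i had means of 2.59, 3.61 and 3.35 and were not tested.

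The Obp83 cluster on 3R had 4 members on the arrays, all of them tested. Obp83cd and Obp83ef each encode a protein with a doubled binding domain. Obp83ef read 8.31, 7.69 and 8.17 in mutants and 8.43, 8.46 and 8.11 in controls (difference -0.28, SE 0.18, limma adjusted p = 0.697), with mutant replicate 2 lowest and the groups overlapping. The difference was -0.092 without that array. Obp83cd was dimmer, at 4.82 ± 0.21 in mutants and 4.82 ± 0.20 in controls (SD, n = 3 per group). The 4 differences of the cluster lay between -0.34 and -0.00052, with a median of -0.21. The lowest was that of Obp83b, which passed the filter through its controls. The differences of the 3 tested genes of the Obp99 cluster, on the same arm, were -0.089, 0.14 and 0.21. The value of 0.14 is from Obp99b at the top of the range. The difference between the clusters was not tested.

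The other clusters were dim or showed small differences. Of the 4 Obp19 genes, which are direct neighbours on the X chromosome, Obp19b and Obp19d were tested, with differences of -0.0035 and -0.11. Of the Obp58 genes, which encode proteins of the Plus-C type with additional cysteines, Obp58c (0.072) and Obp58d (0.011) were tested and Obp58b was not. Of the Obp50 genes, Obp50d (-0.11) and Obp50e (0.21) were tested. Obp50e passed the filter through its mutants (mean 4.69), as its control mean of 4.49 was below the lowest level tested. None of the 4 measured Obp57 genes, a cluster with genes used in adult taste hairs, passed the filter; their means ran from 2.97 for Obp57a to 4.05 for Obp57b. Among single genes, Obp47a had a difference of -0.042 and Obp73a one of 0.030. Of the members, 26 lie on 2R, 11 on 3R, 6 on X, 2 on 2L and 2 on 3L, and 13, 7, 3, 1 and 1 of these were tested.

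**Figure D4:**
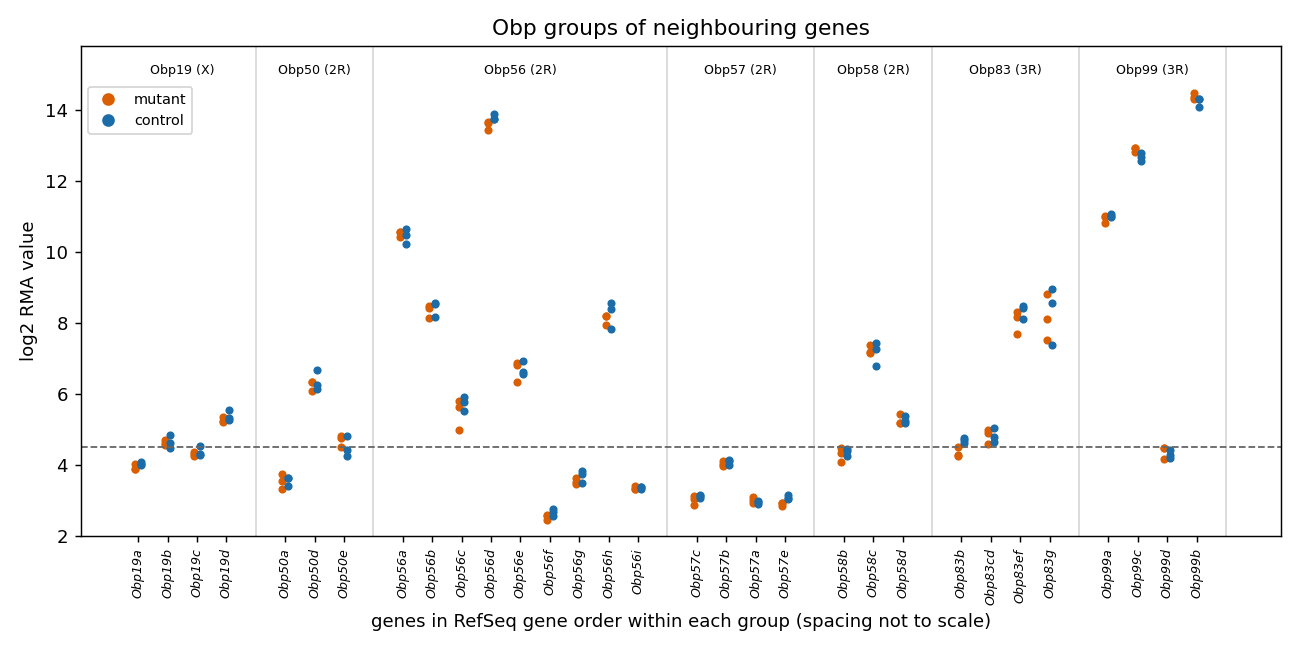
Log2 RMA values (vertical axis) of the Obp genes in the 7 groups with at least 3 measured members, in RefSeq gene order within a group (horizontal axis, spacing not to scale), on 3 mutant (orange) and 3 control (blue) arrays. The span of gene means within a group runs from 1.09 for Obp57 to 11.09 for Obp56, where Obp56d lies at 13.68 and Obp56f at 2.59; the dashed line is at 4.51.

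The 22 members that were not tested stayed near the bottom of the scale in both genotypes. Their values on single arrays lay between 2.45 and 4.54. Their differences in mean, given without a test, ran from -0.21 for Obp84a to 0.07 for Obp57a and Obp99d, and in none was the difference larger than 0.3. Obp59a, a protein of humidity-sensing organs, had a mean of 4.21, and Obp69a, a member of the adult antenna, one of 3.29. Further, dimmer probesets of Obp19a, Obp19c and Obp59a had means of 3.05, 3.14 and 2.76. Without the filter, limma called 0 of 47 Obp genes against 0.442% of all genes, and 5 of 47 (10.6%) had an unadjusted p under 0.05 against 8.64%. A low value does not show that a gene was silent.

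Genes of binding proteins known from the adult antenna were unevenly bright in the larvae. Of 10 such genes, lush and 9 named Obp and a number, 9 had a probeset and 4 were tested: Obp56d, Obp28a, Obp19d and Obp83b. Their differences were all below 0, between -0.34 and -0.084, with a median of -0.15, and none was called. The lowest was that of Obp83b, which passed the filter through its controls. Over the family 17 of 25 tested genes had a difference below 0. Obp19a, Obp59a, Obp69a, Obp84a and lush, the gene of the binding protein required for the response to a male pheromone and no member by its symbol, were below the filter; lush had means of 3.44 in mutants and 3.33 in controls. Of 7 members known from male seminal fluid (Obp8a, Obp22a, Obp51a, Obp56e, Obp56f, Obp56g and Obp56i), Obp56e alone was tested in these females. It read 6.34, 6.81 and 6.86 in mutants and 6.60, 6.56 and 6.92 in controls, a difference of -0.024 (limma adjusted p = 0.973).

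No gene was called in a list of other proteins of chemosensory sensilla, which holds lush again. Of 28 listed genes 20 had a probeset and 10 were tested, with a median difference of 0.029. Phk-3, a chemosensory protein of another family, had means of 11.83 in mutants and 11.52 in controls (difference 0.31, limma adjusted p = 0.375). Os-C had a difference of -0.30 and Rh50 one of -0.34 (limma adjusted p = 0.569 and 0.607). Orco, the common subunit of odorant receptors, was below the filter at 3.90 and 3.87. The listed CheA and CheB genes with a probeset were too, except CheB38c, and others had no probeset that was used. Of 5 listed genes of the takeout family and the lipocalins 3 were tested. The lipocalin genes Karl, NLaz and GLaz, which encode other carriers of small hydrophobic molecules, had differences of 0.11, 0.081 and -0.033.

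Of the markers of tissues and stage, 2 passed the test, 1 of gut and 1 of larval cuticle. Of all tested genes 0.529% passed it. An unadjusted p under 0.05 in limma's fit was reached by 5 of 9 gut markers and 2 of 5 larval cuticle genes. Each other list of markers had at most 2 such genes. The share over all tested genes was 9.05%. Fbp1, a fat body gene, and Sgs3, a salivary glue gene of late larvae, were bright, with control means of 13.66 and 14.11. None of 5 tested fat body, 9 glia, 6 neuron, 4 sensillum support cell, 9 hemocyte, 6 muscle and 11 late larval stage markers was called, with median differences of 0.06, -0.14, -0.083, -0.12, -0.13, 0.20 and -0.080. The smallest p-values there belonged to Fbp1 (0.28), alrm (0.38), Syn (-0.43), pros (-0.53), PPO2 (-0.98), sls (0.70) and ImpE3 (-0.29), with limma adjusted p-values between 0.186 and 0.657. Of 9 gut markers LysX fell (-1.86, limma adjusted p = 0.00152), with a list median of -0.19. Another lysozyme gene, LysP, was higher in all 3 mutants, with means of 8.48 and 7.27, a difference of 1.21 that did not pass (limma adjusted p = 0.0896). Of 5 larval cuticle genes Cpr67B rose (0.59, limma adjusted p = 0.025), with a list median of 0.35.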

How the data were processed

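The deposited table holds log2 expression values of 18952 probesets, 183 of them control probesets, on 6 arrays. The authors made them by RMA (background correction, normalization between arrays, summary over probes), per the design text in the labels; the submitters' processing notes name RMA without a version. The authors also filtered by detection calls, per that design text, but no calls are in the table, so dim probesets were removed by level instead. Because RMA equalizes the distributions of the arrays, these values cannot show a shift of most transcripts together. For arrays their number, 3 against 3, limits the precision.

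Probesets were named through the platform annotation, and symbols, arms and gene order came from RefSeq (assembly Release 6 plus ISO1 MT). Control probesets were removed, then the dimmest 40% of the rest by 6-array mean. Mutant minus control was tested with the two-sided moderated test of limma 3.58.1 (lmFit, eBayes; R 4.3.3). P-values were adjusted by Benjamini-Hochberg over 11262 probesets, and genes under 0.05 were called; this fit gave every adjusted p for which no other fit is named. The steps were tested on simulated data. Figures were drawn with matplotlib 3.10.9.

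Values were given for called Obp genes, the 10 brightest, the 5 with the smallest p, members of clusters, the neighbours of the gene with the smallest p, and up to 3 genes of each list; other members and genes were named after their values were seen. The lists are antennal Obp, seminal fluid Obp, other chemosensory sensillum proteins, takeout family and lipocalins, fat body, glia, neuron, sensillum support cell, gut, hemocyte, muscle, larval cuticle and late larval stage genes. Members and lists were chosen with earlier results of these data known. Replicate numbers were not taken as pairs: deviations of same-numbered arrays from their group means correlated at 0.0529, -0.189 and 0.323. Mutant and control arrays with different numbers correlated at -0.292 to 0.212, so the value of replicate 3 was the highest of all pairings.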

Additional observations from a re-analysis of the deposited data

How the results depend on the processing

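The count of called Obp genes was 0 with no filter on level (lowest limma adjusted p = 0.177 over 47 genes, 5 at an unadjusted p under 0.05), with the 20% or 60% dimmest probesets left out, after quantile normalization, with a trend in the variance prior and in all 6 fits without 1 array. It was 1 of 25, Obp83b, with array weights, in a fit that called 2.08% of all tested genes. Obp83b passed the main filter through its controls. The 5 genes at an unadjusted p under 0.05 without the filter are 10.6% of 47, against 8.64% of all genes. Obp83b was below the filter, and so not tested, with 60% left out and in the 3 fits without a control. The number of Obp genes past the filter was 37 with 20% and 14 with 60% of probesets left out, because the filter itself is laxer or stricter. The median difference ran from -0.085 to -0.042 over the settings with all arrays and from -0.080 to 0.016 with 1 array left out. With the replicate number as a block the count was 0 (lowest limma adjusted p = 0.256) and the median -0.042; the numbers are not known to pair the arrays. The sign turned for Obp44a with array weights (0.024) and, with 1 array left out, for Obp44a (-0.051 to 0.010), Obp56a (-0.032 to 0.17), Obp56b (-0.22 to 0.015) and Obp83g (-0.61 to 0.17), none of them called; the cause was not tested. The 13 Obp genes named by the rule on brightness and p have 1 probeset each; Obp19a, Obp19c and Obp59a have a second, dimmer one, and none of these was tested.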
